A study of Mus musculus with 16 samples.

Results

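The levels of 10 genes of lipid uptake, storage and efflux were followed in sorted microglia: Apoe, Apoc1, Lpl, Abca1, Abcg1, Soat1, Ch25h, Fabp5, Plin2 and Cd36. They were chosen by symbol, as a set of genes that carry, release, store or export lipid, and all 10 were among the 17951 genes listed. The choice was made with earlier results of these data known. RNA had been sequenced from 16 libraries of microglia, the resident macrophages of the brain. Mice were injected with Methoxy-X04 (Me-X04), a dye that enters the brain and binds the β-sheets of Aβ aggregates, and cells were sorted by the dye that they had taken up. The comparisons ask how the transcripts of TG microglia with and without the dye, and of WT microglia, differ.

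The WT group had 7 libraries from Me-X04 injected wild-type mice, and its cells were sorted as Me-X04 negative. The TG Me-X04- group had 5 libraries and the TG Me-X04+ group 4, sorted from 5xFAD mice, which carry mutant human transgenes driven in neurons by the Thy1 promoter and form amyloid plaques. All 3 groups were Cd11b+ and Cd45+ cells, and the study's methods add Cx3cr1 to the gate. The labels give the strain of every mouse as 5xFAD, and equal replicate numbers in the TG groups stand for 1 animal label, so 4 of the animals gave both fractions. The labels give an age of 2 months for WT and 6 months for TG mice, while the study's methods give ages closer to each other, so by the labels age and genotype cannot be told apart in the comparisons with WT. The libraries are separate animals within a group by their labels. The p-values rest on the spread between libraries, pooled over the 3 groups unless a fit is said to differ. They leave out the pairing of the TG fractions unless a block is named.

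Microglia take in lipid from lipoproteins, dying cells and myelin debris. Lipoprotein lipase (Lpl) frees fatty acids from lipoprotein triglyceride, the scavenger receptor Cd36 takes up fatty acids and oxidized lipoproteins, and fatty acid binding proteins such as Fabp5 carry the acids inside the cell. Surplus cholesterol is esterified by the acyltransferase Soat1 and kept in lipid droplets coated by Plin2, or exported by the transporters Abca1 and Abcg1 to particles that hold apolipoproteins such as ApoE and ApoC-I. Ch25h makes the oxysterol 25-hydroxycholesterol, and oxysterols are ligands of the liver X receptors, which drive Abca1, Abcg1 and Apoe. In microglia, Apoe and Lpl belong to the disease-associated (DAM) genes that rise near amyloid plaques.

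Values are log2 RPKM, that is, reads per kilobase of gene and relative to the scaled library size, on a log2 scale. A difference between 2 groups is a log2 fold change (log2FC). Genes were taken as differentially expressed (DE) where limma's p, adjusted over all listed genes by Benjamini-Hochberg, was under 0.05 and the log2FC was at least 0.7 in size. A small prior added to the reads makes the log2FC of genes with few reads smaller than the change in reads.

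A WT library had 15623664 to 22119327 reads on the listed genes, a TG Me-X04- library 17216633 to 25184600 and a TG Me-X04+ library 22430251 to 27579017. Mitochondrial genes took 12.6% to 31.3%, 20.6% to 44.8% and 31.3% to 56.8% of these reads in the 3 groups, so their share moved with the groups. The libraries also fell into a set A (3, 2 and 2 in the order WT, TG Me-X04-, TG Me-X04+) and a set B (4, 3 and 2). These lay apart on the leading principal component once each group's mean was subtracted. The sets were thus drawn from the values tested here, and p-values of fits that use them can come out too small. The methods name a pair of sequencers, and which library was run on which was not stated, so the sets are not known to be these. In TG Me-X04+ the mitochondrial share was 55.2% and 56.8% in set A and 31.3% and 32.0% in set B. In TG Me-X04- it was 38.9% and 44.8% against 20.6% to 21.1%, and in WT the sets overlapped. Genes at 0 reads numbered 503 to 1831 per library in set A and 55 to 524 in set B. What sets these libraries apart was not tested. All 10 microglia markers were present at a summed level of 4590 to 8581 RPKM, and Tmem119 fell by 1.58 on the log2 scale in TG Me-X04+ against TG Me-X04- (limma adjusted p = 0.00821). Of the astrocyte markers, 5 of 8 were listed at a sum of 9.86 to 29.7 RPKM, and of the oligodendrocyte markers 5 of 7 at 7.34 to 17.7 RPKM. The 6 border macrophage markers summed to 2.48 to 5.97, 1.74 to 6.88 and 2.76 to 20.8 RPKM in the 3 groups, in the same order. Of the monocyte and neutrophil markers 3 of 6 summed to 1.25 to 22.2 RPKM, of the neuron markers 3 of 7 to 0.106 to 1.91, and the 1 listed lymphocyte marker of 5 lay between 0.0657 and 0.891. Of the endothelium and pericyte list, 3 of 7 were listed (2.31 to 12.6, 1.61 to 2.63 and 1.22 to 7.86 RPKM), and of these Flt1 was 3.55 higher in TG Me-X04+ against TG Me-X04- (adjusted p = 0.00608) while Pecam1 gave -2.47 (adjusted p = 0.233). The part of other cell types in the results was not tested, and in bulk RNA fewer cells with a transcript and less of it per cell cannot be told apart.

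The genes lie on 8 chromosomes of GRCm38. Their identifiers in the table are Apoe (ENSMUSG00000002985), Apoc1 (ENSMUSG00000040564), Lpl (ENSMUSG00000015568), Abca1 (ENSMUSG00000015243), Abcg1 (ENSMUSG00000024030), Soat1 (ENSMUSG00000026600), Ch25h (ENSMUSG00000050370), Fabp5 (ENSMUSG00000027533), Plin2 (ENSMUSG00000028494) and Cd36 (ENSMUSG00000002944). Apoe (chr7:19696109-19699188) and Apoc1 (chr7:19689481-19692660) are neighbours on the minus strand, with 3448 bases between them. Lpl is at chr8:68880491-68907448 on the plus strand, Abcg1 at chr17:31057675-31117988 on the plus strand and Fabp5 at chr3:10012548-10016607 on the plus strand. On the minus strand are Abca1 (chr4:53030787-53159895), Plin2 (chr4:86648386-86670060), Soat1 (chr1:156424525-156474331), Ch25h (chr19:34473778-34475164) and Cd36 (chr5:17781690-17888801). Ch25h overlaps the antisense transcript Gm26902 and Soat1 overlaps Gm37648 on the other strand. Whether the counting used strand was not stated, so reads from these pairs cannot be told apart. Fabp5 has processed pseudogene copies, and how reads matching several copies were counted was not stated, which leaves its level uncertain.

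Promoter windows of RefSeq on GRCm38.p6, each from 250 bases before to 50 bases after a start site, were searched because the liver X receptors act on several of these genes and because the levels of Apoe and Ch25h moved together. RefSeq windows were matched for 6 of the 10 genes, and Apoc1, Lpl, Abcg1 and Fabp5 were not matched. The 4 motifs searched on both strands were a direct repeat spaced by 4 bases as bound by liver X receptors (DR4, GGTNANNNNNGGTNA), a CACGTG E-box, the GGAAGT core of ETS factors such as PU.1, and TATAAA. No matches of different motifs overlap in these windows, and a pair of TATAAA matches on opposite strands overlaps in an inner Apoe window. Among 32851 promoter windows, 0.718% held DR4, 7.15% the E-box, 23.8% GGAAGT and 13.6% TATAAA. The windows of Apoe (at its outermost start) and Ch25h, whose levels rose at both steps, of Abca1, which did not rise, and of Plin2 are printed from 5′ to 3′ along the gene's strand, with every match in capitals.
Apoe, chr7:19699139-19699438, minus strand: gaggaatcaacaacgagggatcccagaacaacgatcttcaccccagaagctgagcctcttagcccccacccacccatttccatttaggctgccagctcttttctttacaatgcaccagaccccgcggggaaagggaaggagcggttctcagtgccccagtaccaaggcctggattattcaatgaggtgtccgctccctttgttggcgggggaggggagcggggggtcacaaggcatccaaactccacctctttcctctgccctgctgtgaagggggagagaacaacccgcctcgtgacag
Ch25h, chr19:34475099-34475398, minus strand: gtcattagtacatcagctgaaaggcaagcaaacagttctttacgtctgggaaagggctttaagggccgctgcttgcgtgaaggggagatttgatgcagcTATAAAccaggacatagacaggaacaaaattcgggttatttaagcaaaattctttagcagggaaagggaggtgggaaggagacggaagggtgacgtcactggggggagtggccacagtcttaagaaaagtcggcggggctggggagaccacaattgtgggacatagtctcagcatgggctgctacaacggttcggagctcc
Abca1, chr4:53159846-53160145, minus strand: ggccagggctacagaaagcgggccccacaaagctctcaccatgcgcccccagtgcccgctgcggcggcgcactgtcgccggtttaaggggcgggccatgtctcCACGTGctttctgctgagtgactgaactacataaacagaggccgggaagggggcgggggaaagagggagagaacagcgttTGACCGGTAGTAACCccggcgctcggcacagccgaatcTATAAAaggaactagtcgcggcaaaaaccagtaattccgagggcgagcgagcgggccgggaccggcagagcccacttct
Plin2, chr4:86670010-86670309, minus strand: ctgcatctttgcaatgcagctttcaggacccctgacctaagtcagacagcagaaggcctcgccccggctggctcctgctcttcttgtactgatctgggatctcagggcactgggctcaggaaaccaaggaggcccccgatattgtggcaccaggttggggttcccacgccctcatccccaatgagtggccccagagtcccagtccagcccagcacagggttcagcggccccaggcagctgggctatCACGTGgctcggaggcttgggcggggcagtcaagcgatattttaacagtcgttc
The Abca1 window held the DR4 letters on the opposite strand, at position -67 from the start site, beside an E-box at -147 and TATAAA at -29. In the Ch25h window TATAAA began at -151, and in the Plin2 window the E-box began at -4. The printed Apoe window held none of the 4 motifs, and a further Apoe window with an inner start (chr7:19698572-19698871) held TATAAA. Soat1 and Cd36 each held GGAAGT, in Cd36 on the opposite strand. A match is a matter of letters only and says nothing of binding.

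In TG Me-X04+ against TG Me-X04-, 6 of the 10 genes were DE and all 6 were higher: Apoe, Apoc1, Lpl, Ch25h, Fabp5 and Plin2. Over all genes, 5.49% were DE in this comparison, 3.44% higher and 2.06% lower. The median log2FC of the 10 genes was 2.00, beside -0.09 over all genes. Since the genes were chosen with earlier results of these data known, these values describe the set and do not test it. The transporters Abca1 and Abcg1, the acyltransferase Soat1 and the receptor Cd36 did not pass. No library of either group lay in the range of the other for Apoe, Lpl, Soat1, Ch25h and Fabp5, as held for 7.93% of all genes. With the animal as a block, in a fit of the TG libraries alone, 3 of the 6 calls held (Apoe, Lpl and Ch25h). That fit called 1079 of the 17951 genes. A limma fit of these 2 groups alone, without the block, called 470, beside 986 in the main fit. It lost Apoc1 (adjusted p = 0.0532) and Plin2 (adjusted p = 0.114).

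In TG Me-X04- against WT, Apoe and Ch25h were DE, both higher, and the other 8 genes were not (median log2FC 1.06, beside 0.01 over all genes). Only 0.201% of all genes were DE here, 0.189% higher and 0.0111% lower. In TG Me-X04+ against WT, 7 genes were DE and higher: the 6 above and Soat1 (median log2FC 2.92, beside -0.11 over all genes). In that comparison 14.3% of all genes were DE, 8.25% higher and 6.02% lower. The 3 comparisons share their libraries, so each gene's values are given side by side and no count of shared calls is drawn from them.

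**Figure D1:**
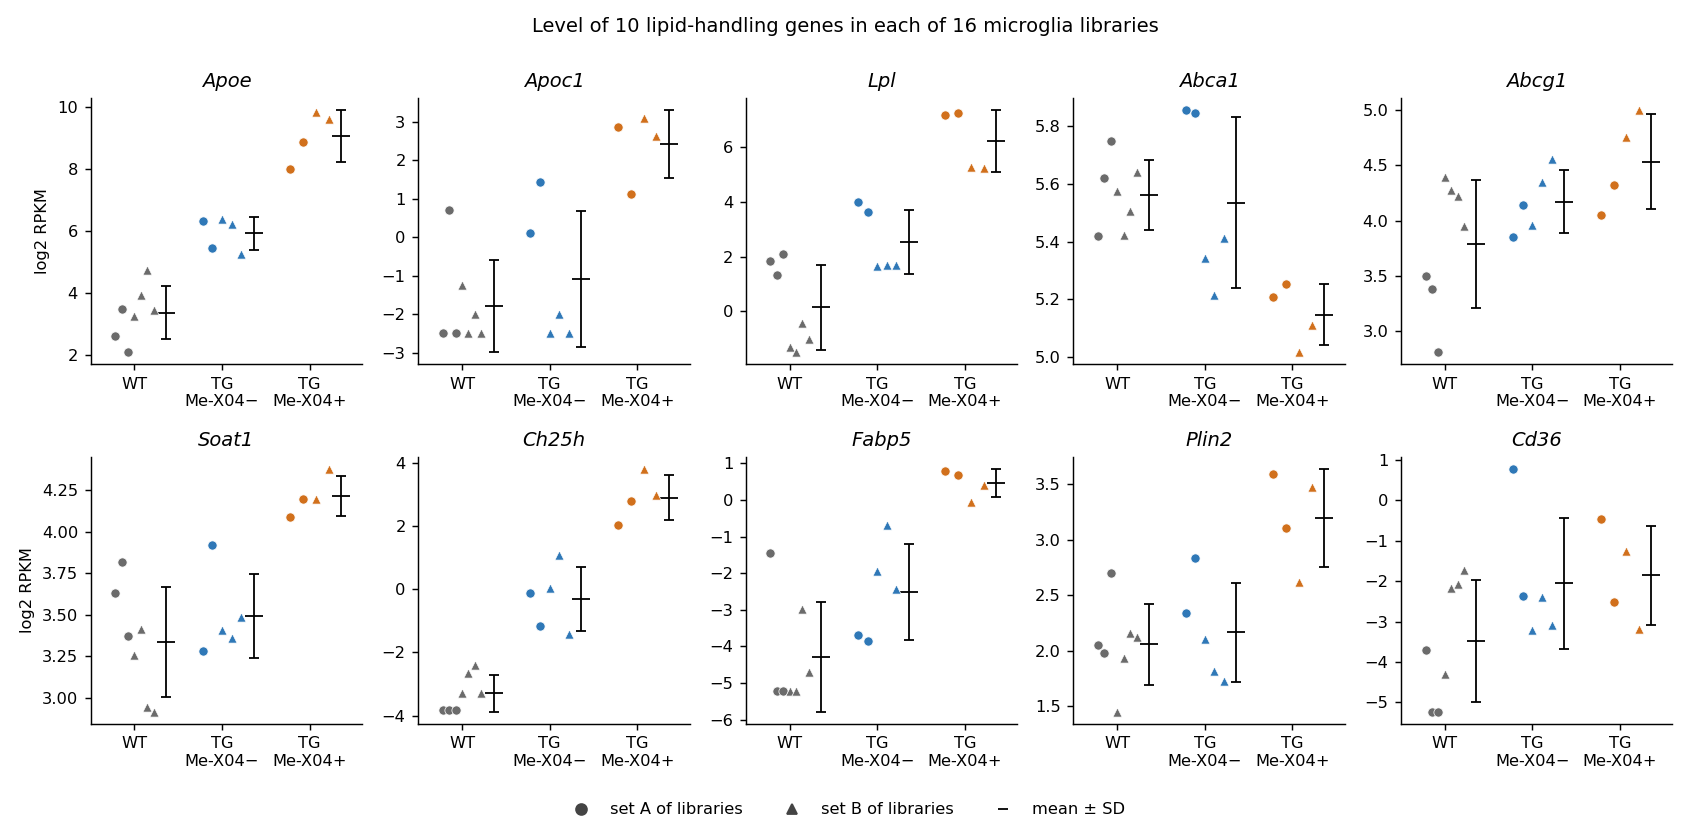
Level of each gene (vertical axis, log2 RPKM, a separate scale in each panel) in the 16 libraries by group, with circles for set A, triangles for set B and black bars for mean ± SD. Apoe and Ch25h stepped up from WT to TG Me-X04- to TG Me-X04+ with no overlap. In Lpl the circles lay above the triangles in each group and TG Me-X04- overlapped WT, and Abca1 lay within 1 unit in all libraries.

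Of the apolipoproteins, Apoe encodes the main apolipoprotein of the brain, the protein part of its lipoprotein particles. It measured 2.11 at the lowest, 3.46 at the median and 4.75 log2 RPKM at the highest in the 7 WT libraries. The 5 TG Me-X04- libraries gave 6.33, 5.45, 6.39, 6.24 and 5.29, and the 4 TG Me-X04+ libraries gave 8.01, 8.87, 9.85 and 9.62. Each group lay wholly above the one before it. The group means were 3.38 ± 0.85 (SD, n = 7), 5.94 ± 0.53 (n = 5) and 9.09 ± 0.83 (n = 4). By its mean, Apoe ranked 3176, 334 and 77 among the 17951 genes in these groups, in that order. The log2FC of TG Me-X04+ against TG Me-X04- was 3.15 (SE 0.46, 8.86-fold, limma adjusted p = 0.000983), that of TG Me-X04- against WT was 2.56 (SE 0.41, 5.89-fold, adjusted p = 0.00847) and that of TG Me-X04+ against WT was 5.71 (SE 0.43, 52.2-fold, adjusted p = 2.25e-07). The reads behind these values ran from 126 to 1339, from 1725 to 4559 and from 6726 to 41816 in the 3 groups. All 3 calls held with each library left out.

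Apoc1, the neighbour of Apoe, encodes a small apolipoprotein that slows lipoprotein lipolysis and uptake. Its reads were few. In WT it had 0 reads in 4 libraries and 13 at the most, in TG Me-X04- 8, 27, 0, 1 and 0 reads, and in TG Me-X04+ 50, 16, 102 and 76 reads. On the log2 scale TG Me-X04+ gave 2.85, 1.12, 3.08 and 2.63 and TG Me-X04- 0.11, 1.44, -2.49, -1.99 and -2.49, with the second library of each group overlapping. The log2FC of TG Me-X04+ against TG Me-X04- was 3.50 (SE 0.84, adjusted p = 0.0210), and against WT 4.20 (SE 0.79, adjusted p = 0.00131). TG Me-X04- against WT gave 0.70 (SE 0.73, adjusted p = 0.999). With the animal block the first was 3.15 with an adjusted p of 0.0952. It also missed the threshold without TG Me-X04- replicate 3, 4 or 5 or without TG Me-X04+ replicate 1 or 3, with an adjusted p between 0.0517 and 0.0621.

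Lpl, the lipase, measured -1.48 at the lowest, -0.43 at the median and 2.10 at the highest in WT. TG Me-X04- gave 3.97, 3.64, 1.66, 1.68 and 1.70 log2 RPKM, and TG Me-X04+ gave 7.15, 7.25, 5.27 and 5.23. All TG Me-X04+ libraries lay above all others, while the lower TG Me-X04- libraries lay within the range of WT. The group means were 0.15 ± 1.55, 2.53 ± 1.17 and 6.22 ± 1.13 (SD), and the rank by mean went from 13025 to 5642 to 414 of all genes. Against TG Me-X04-, Lpl in TG Me-X04+ was higher by 3.69 (SE 0.81, 12.9-fold, adjusted p = 0.0121), and against WT by 6.07 (SE 0.75, 67.2-fold, adjusted p = 3.45e-05). TG Me-X04- against WT gave 2.38 (SE 0.70, adjusted p = 0.395). That last value was DE once a term for the 2 sets was in the fit (2.45, adjusted p = 1.81e-05), with libraries weighted by quality (2.67, adjusted p = 0.00355) and in set B alone (2.73, adjusted p = 0.00638). Over all genes these fits called 101, 175 and 19 in this comparison, in that order, beside 36 in the main fit. The sets themselves were drawn from these values.

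Ch25h, the cholesterol 25-hydroxylase, had at most 4 reads in any WT library and up to 425 in TG Me-X04+. WT values were -3.82 at the lowest, -3.30 at the median and -2.41 at the highest, and 3 of the 7 libraries had 0 reads. TG Me-X04- gave -0.11, -1.17, 0.02, 1.08 and -1.43 log2 RPKM (10 to 70 reads), and TG Me-X04+ gave 2.04, 2.79, 3.79 and 2.96 (72 to 425 reads). As for Apoe, no 2 of the 3 groups overlapped. The log2FC was 3.22 (SE 0.55, adjusted p = 0.00236) for TG Me-X04+ against TG Me-X04-, 2.98 (SE 0.48, adjusted p = 0.00886) for TG Me-X04- against WT and 6.19 (SE 0.51, adjusted p = 6.39e-07) for TG Me-X04+ against WT. All 3 held with each library left out. Because WT was near 0 reads, the size of the last 2 depends on the prior: with a pseudocount of 1 RPKM, TG Me-X04- against WT was 0.77 (adjusted p = 0.485), and with limma voom on the recovered reads it was 4.01 (adjusted p = 0.0964).

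The efflux transporters moved little. Abca1, which loads cholesterol on lipid-poor ApoE, was the highest of the 10 in WT, at 5.42 to 5.75 log2 RPKM with a median of 5.58. TG Me-X04- libraries gave 5.86, 5.84, 5.34, 5.22 and 5.41, and TG Me-X04+ ones 5.21, 5.25, 5.02 and 5.11. All TG Me-X04+ values lay below all WT values, and 1 TG Me-X04- value lay among them. The log2FC was -0.39 (SE 0.17, adjusted p = 0.221) against TG Me-X04- and -0.41 (SE 0.16, adjusted p = 0.0925) against WT, and TG Me-X04- against WT gave -0.03 (SE 0.15, adjusted p = 0.999). After quantile normalization both comparisons of TG Me-X04+ passed, at -0.79 (adjusted p = 0.0106 and 0.00195).

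Abcg1, which passes cholesterol on to formed particles, measured 2.81, 3.95 and 4.39 at the lowest, median and highest in WT. TG Me-X04- gave 3.86, 4.14, 3.96, 4.35 and 4.56, and TG Me-X04+ gave 4.05, 4.32, 4.75 and 5.00. The 3 groups overlapped. The log2FC was 0.36 (SE 0.31, adjusted p = 0.589) for TG Me-X04+ against TG Me-X04-, with a 95% interval from -0.29 to 1.00, and 0.74 (SE 0.29, adjusted p = 0.0959) for TG Me-X04+ against WT. With a term for the sets the comparison with WT gave 0.79 (adjusted p = 0.00342). With that term 3919 of all genes were DE there, beside 2562 in the main fit. TG Me-X04- against WT gave 0.38 (SE 0.27, adjusted p = 0.999).

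Among the genes of storage, Soat1 measured 2.92 at the lowest, 3.37 at the median and 3.82 at the highest in WT. It was 3.28, 3.92, 3.41, 3.36 and 3.49 in TG Me-X04- and 4.09, 4.20, 4.20 and 4.38 in TG Me-X04+. All 4 TG Me-X04+ values lay above the other 12. The log2FC against WT was 0.88 (SE 0.20, adjusted p = 0.00534) and against TG Me-X04- 0.72 (SE 0.21), whose adjusted p of 0.0550 missed the threshold. The latter passed without TG Me-X04- replicate 2 (0.83, adjusted p = 0.0332) and with a term for the sets (0.70, adjusted p = 0.0146). With that term 2142 of all genes were DE between the TG fractions, beside 986 in the main fit. TG Me-X04- against WT gave 0.15 (SE 0.18, adjusted p = 0.999).

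Plin2, the coat of lipid droplets, measured 1.45, 2.05 and 2.70 at the lowest, median and highest in WT. TG Me-X04- gave 2.34, 2.84, 2.11, 1.82 and 1.73, and TG Me-X04+ gave 3.59, 3.10, 2.62 and 3.47. The third TG Me-X04+ library lay within the range of the other groups and the rest lay above it. The log2FC was 1.03 (SE 0.29, 2.04-fold, adjusted p = 0.0478) against TG Me-X04- and 1.14 (SE 0.27, adjusted p = 0.00836) against WT, with 0.11 (SE 0.25, adjusted p = 0.999) for TG Me-X04- against WT. The first was close to the threshold: with the animal block it was 0.92 (adjusted p = 0.127), and leaving out any library of these 2 groups other than TG Me-X04- replicate 2 and TG Me-X04+ replicate 3 gave an adjusted p between 0.0664 and 0.127.

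Of the genes of fatty acid uptake and transport, Fabp5 had 0 reads in 4 WT libraries and 20 in the highest. In TG Me-X04- it had 3, 3, 23, 54 and 14 reads (-3.68, -3.86, -1.94, -0.68 and -2.42 log2 RPKM) and in TG Me-X04+ 81, 84, 77 and 109 (0.80, 0.68, -0.04 and 0.40). All TG Me-X04+ libraries lay above the others. The log2FC was 2.98 (SE 0.83, adjusted p = 0.0444) against TG Me-X04- and 4.75 (SE 0.78, adjusted p = 0.000408) against WT. TG Me-X04- against WT gave 1.77 (SE 0.73, adjusted p = 0.829). The first was lost with the animal block (3.00, adjusted p = 0.0720) and without any single library of the 2 groups other than TG Me-X04- replicate 4 (adjusted p between 0.0633 and 0.101).

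Cd36 was low throughout. It measured -5.23 at the lowest, -3.70 at the median and -1.72 at the highest in WT, 0.76, -2.36, -3.21, -2.38 and -3.09 in TG Me-X04-, and -0.47, -2.51, -1.27 and -3.19 in TG Me-X04+. The groups overlapped, and the highest value was that of TG Me-X04- replicate 1, with 99 reads. The log2FC was 0.20 (SE 0.95, adjusted p = 0.940) for TG Me-X04+ against TG Me-X04-, with a 95% interval from -1.81 to 2.20. Against WT it was 1.63 (SE 0.89, adjusted p = 0.250) in TG Me-X04+ and 1.43 (SE 0.83, adjusted p = 0.999) in TG Me-X04-. Between the TG fractions, a rise or a fall of Cd36 within that interval is not excluded by these libraries.

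**Figure D2:**
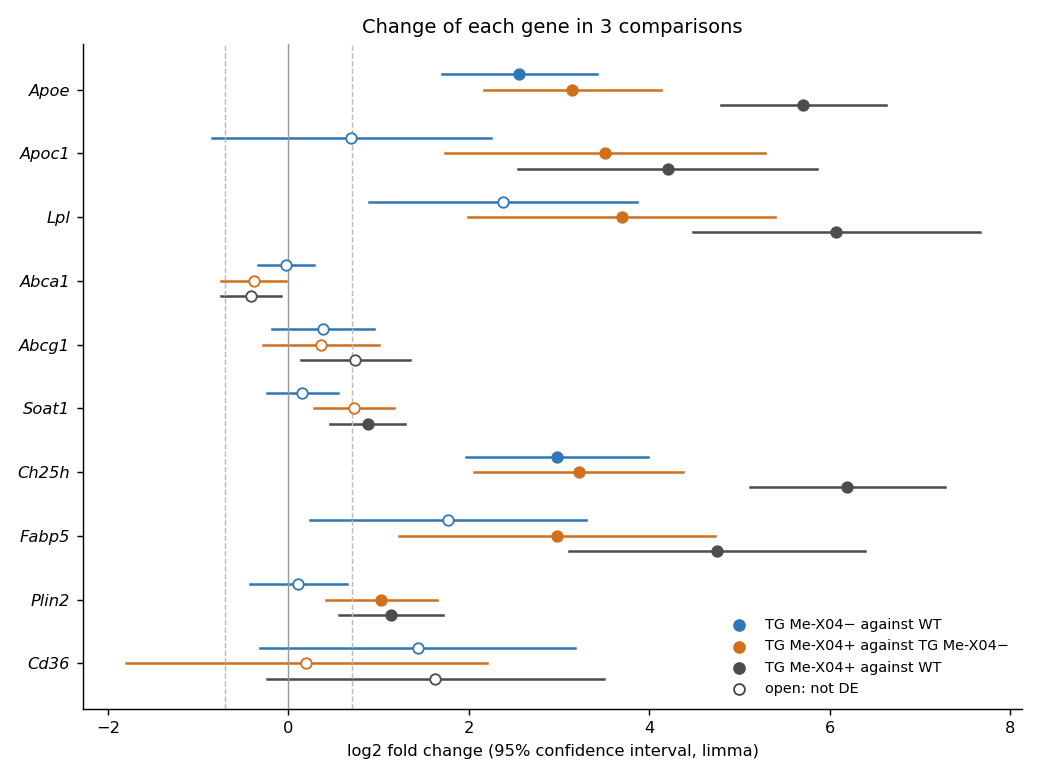
Log2 fold change of each gene by limma with its 95% confidence interval (horizontal axis) in 3 comparisons, filled where DE, with dashed lines at the threshold of 0.7. The orange and blue intervals of Apoe, Lpl and Ch25h lie wholly above 0.7. Those of Abca1, Abcg1, Soat1, Plin2 and Cd36 reach below 0.7 in all 3 comparisons.

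The order of the genes by level, per length, differed between the groups. In WT, Abca1 was the highest, followed by Abcg1, Apoe, Soat1, Plin2, Lpl, Apoc1, Ch25h, Cd36 and Fabp5. Abca1 lay above Abcg1, and Soat1 above Plin2, with no overlap of libraries, and all other neighbours overlapped. In TG Me-X04- the order was Apoe, Abca1, Abcg1, Soat1, Lpl, Plin2, Ch25h, Apoc1, Cd36 and Fabp5, with no overlap between Abca1 and Abcg1 and between Plin2 and Ch25h, while the other neighbours, Apoe and Abca1 among them, overlapped. In TG Me-X04+ it was Apoe, Lpl, Abca1, Abcg1, Soat1, Plin2, Ch25h, Apoc1, Fabp5 and Cd36. There, Apoe lay above Lpl by 2.86 on the log2 scale with no overlap, Abca1 above Abcg1, Soat1 above Plin2, Apoc1 above Fabp5 and Fabp5 above Cd36 likewise, and the other neighbours overlapped. The means of all but Abca1 went up from WT to TG Me-X04- to TG Me-X04+, by only 0.11 for Plin2 and 0.15 for Soat1 at the first step. That step changed sign between the sets for Apoc1, Plin2, Soat1 and Cd36. The share of all genes with this order was not counted.

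Whether the step from TG Me-X04- to TG Me-X04+ was larger than that from WT to TG Me-X04- was tested as a contrast in the same limma fit. None of the 10 genes passed, as none of the 17951 genes did (0%), while 956 genes had an unadjusted p under 0.05 and none of the 10 was among them. For Apoe the steps of 3.15 and 2.56 differed by 0.59, with a 95% interval from -1.01 to 2.18. Those of Ch25h differed by 0.24 (-1.64 to 2.12) and those of Lpl by 1.32 (-1.45 to 4.09). The widest was Apoc1, at 2.81 (-0.08 to 5.69, adjusted p = 0.936). In set B alone the difference for Apoc1 was 5.45 and passed (adjusted p = 0.0278).

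Within the 4 animals that gave both fractions, Lpl was higher in the Me-X04+ fraction by 3.18, 3.61, 3.61 and 3.55 on the log2 scale. The spread between these animals (SD 0.21) was smaller than the SD of Lpl between the TG Me-X04- libraries (1.17). Both fractions of an animal are of the same set, and within a set the TG Me-X04- libraries lay close together (3.97 and 3.64, and 1.66, 1.68 and 1.70). Apoe was higher by 1.68, 3.42, 3.46 and 3.38 and Ch25h by 2.15, 3.96, 3.77 and 1.88. Soat1 (0.81, 0.28, 0.79 and 1.01) and Plin2 (1.25, 0.27, 0.51 and 1.65) were higher in 4 of 4 animals, as were Fabp5 (1.08 to 4.53) and Abcg1 (0.18 to 0.79). Abca1 was lower in 4 of 4 (-0.65, -0.59, -0.33 and -0.11). Apoc1 was higher in 3 of 4, with -0.32 in animal 2, and Cd36 in 1 of 4. With 4 pairs, the smallest p that an exact two-sided sign-flip test allows is 0.125. The pairs were therefore tested in limma on the TG libraries with a block for the animal, which gave 3.49 for Lpl (adjusted p = 0.000432), 2.98 for Apoe (adjusted p = 0.00244) and 2.94 for Ch25h (adjusted p = 0.0117).

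**Figure D3:**
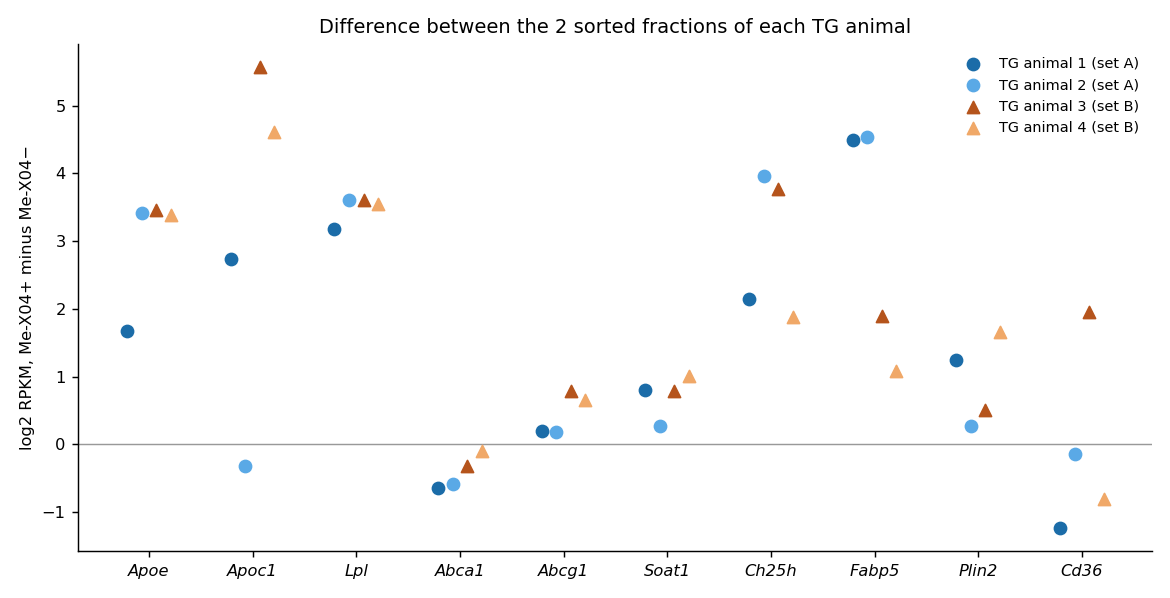
Difference in log2 RPKM between the Me-X04+ and the Me-X04- library of each of 4 TG animals (vertical axis) for the 10 genes, with a line at 0. The 4 points of Lpl lie between 3.18 and 3.61, those of Abca1 all lie below 0 and those of Apoc1 and Cd36 on both sides of it.

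Over the 45 pairs of the 10 genes, the median Pearson r was 0.53 over the libraries and 0.03 on deviations from the group means. Abca1 ran against the others over the libraries, with r from -0.81 (Fabp5) to -0.11 (Cd36). On the deviations its r ran from -0.64 (Fabp5) to 0.63 (Plin2). Over the 16 libraries, which share their group, in part their animal and their set, the Pearson r of Apoe with Ch25h was 0.98, with Fabp5 0.82, with Lpl 0.78 and with Apoc1 0.75. Taken as deviations from the group means, r was 0.79 for Apoe with Ch25h, 0.04 with Fabp5, -0.58 with Lpl and 0.04 with Apoc1. With the set means taken out as well, r was 0.69 with Ch25h, and 0.14 with Lpl. Over the 45 pairs of the 10 genes, 26 had an r above 0.5 on the values, 6 on the deviations from the group means and 2 on those from group and set means. These are descriptions, since libraries of 1 group are not independent of the group.

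The distance of Lpl to Apoe differed by set. Ch25h minus Apoe, on the log2 scale, lay between -6.71 and -5.16 in the 9 TG libraries, while in WT, where Ch25h had 0 to 4 reads, it is set mainly by the prior. Lpl minus Apoe lay between -2.35 and -0.01 in the 7 libraries of set A and between -5.43 and -3.58 in the 9 of set B. Lpl was higher in set A than in set B in each group with no overlap, by 2.81, 2.13 and 1.95 in the order WT, TG Me-X04-, TG Me-X04+. Apoe was lower in set A by 1.11, 0.08 and 1.30, without overlap in TG Me-X04+. Abcg1 was also lower in set A, by 0.98, 0.29 and 0.69, without overlap in 2 of the 3 groups (WT and TG Me-X04+).

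Within set A, TG Me-X04+ was above TG Me-X04- by 2.55 for Apoe, 3.39 for Lpl, 3.06 for Ch25h and 4.51 for Fabp5, and within set B by 3.76, 3.57, 3.48 and 1.86. For Apoc1 the values were 1.21 and 5.18, and for Plin2 0.76 and 1.16. TG Me-X04- was above WT for Apoe by 3.14 in set A and by 2.12 in set B, by 3.17 and 2.81 for Ch25h and by 2.05 and 2.73 for Lpl. These differences had the same sign in both sets, and others did not. Cd36 gave -0.69 in set A and 0.67 in set B between the TG fractions. For TG Me-X04- against WT, the sign differed for Apoc1 (2.20 and -0.27), Cd36 (3.92 and -0.33), Abca1 (0.25 and -0.21), Plin2 (0.35 and -0.03) and Soat1 (-0.01 and 0.29), none of them DE. Fitted alone, set A with 2 libraries against 2 left only Lpl of the 10 genes DE between the TG fractions, beside 85 of all genes. Apoe there had an adjusted p of 0.0718 and Ch25h of 0.131. Against WT, Apoe in TG Me-X04- had an adjusted p of 0.126 (set A) and 0.0653 (set B).

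**Figure D4:**
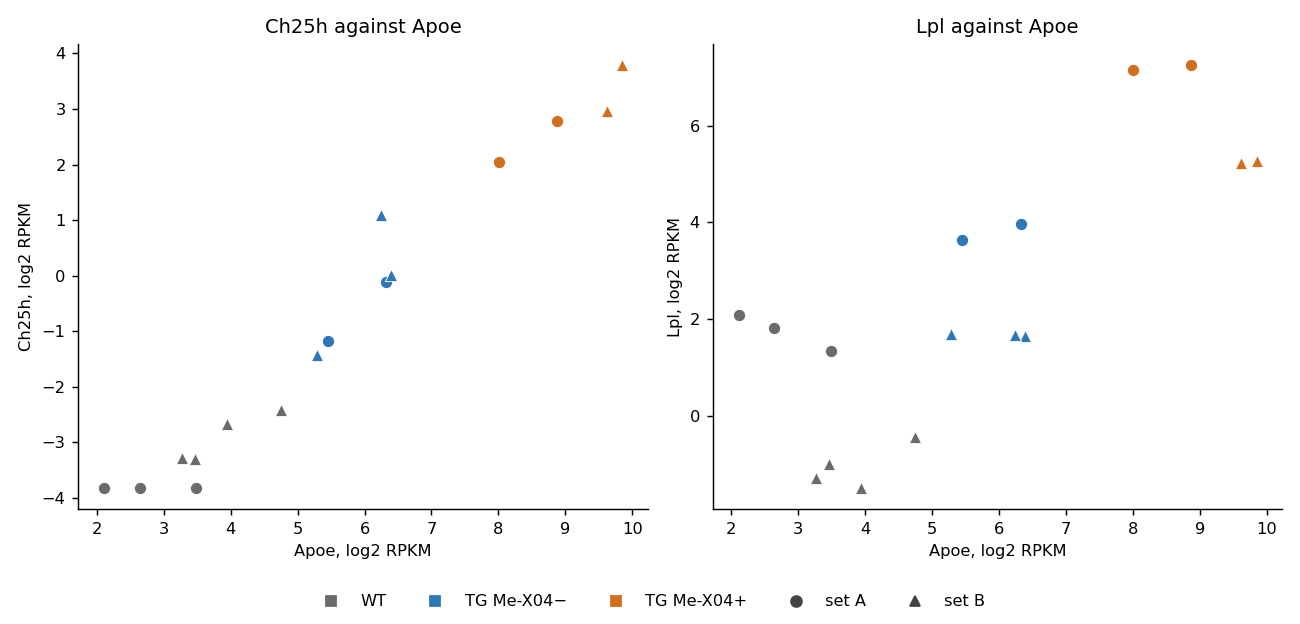
Ch25h (left) and Lpl (right) against Apoe in 16 libraries, all axes in log2 RPKM, with colours for the groups, circles for set A and triangles for set B. Ch25h rises with Apoe, with the WT points at 0 to 4 reads of Ch25h, and Lpl runs in 2 bands that part by set, with set A 1.95 to 2.81 higher in each group.

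Of 13324 genes with a mean of at least 0 log2 RPKM, those most like Apoe over the 16 libraries were Cst7 (r = 0.99), Lyz2 (0.98), Cd52 (0.97), Cd63 (0.97) and Lgals3bp (0.97). Taken as deviations from the group means, their r with Apoe was 0.86, 0.75, 0.75, 0.78 and 0.56. Those most like Lpl were Psat1 (0.98), St8sia6 (0.97), Kcnj2 (0.97), Ptchd1 (0.97) and Gm8995 (0.96), with 0.93, 0.95, 0.82, 0.82 and 0.84 from the group means. Ch25h, whose mean lay below the minimum, had an r with Apoe that only Cst7 exceeded.

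Of a wider list of 73 lipid genes, 58 were listed. In TG Me-X04+ against TG Me-X04-, 2 of the 58 were DE, both higher, with a median log2FC of -0.11 over the 58 (5.49% of all genes were DE here, 3.44% higher). They were the cholesterol ester hydrolase Nceh1 and Npc2, which hands cholesterol out of the lysosome. By role, 0 of 10 apolipoproteins, lipases and their helpers were DE, 0 of 13 receptors and uptake genes, 2 of 14 genes of trafficking and oxysterols, 0 of 10 of esterification and droplets and 0 of 11 lipid-sensing nuclear receptors, their partners and targets. With the animal as a block in limma, on the TG libraries alone, Pltp (1.10, adjusted p = 0.0120) and Lipa (0.84, adjusted p = 0.0255) of the first role were also DE. Both were named after their values were seen, and not all of the 58 were followed in that fit.

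Nceh1 measured 2.95, 3.83, 3.69 and 3.92 log2 RPKM in TG Me-X04+ against 1.41 to 1.83 in TG Me-X04-, a difference of 2.01 (SE 0.32, adjusted p = 0.00143). Npc2 measured 5.80, 6.34, 7.39 and 7.19 against 4.86 to 5.86, where the groups overlapped, a difference of 1.37 (SE 0.34, adjusted p = 0.0240). The call of Npc2 was lost without TG Me-X04- replicate 1, 2 or 5 or TG Me-X04+ replicate 3 or 4 (adjusted p between 0.0512 and 0.0743). It was also lost after quantile normalization (0.78, adjusted p = 0.277) and when scaled by reads outside mitochondrial genes (1.10, adjusted p = 0.0921). Fits of the 2 groups alone (adjusted p = 0.0677) and of set A alone (adjusted p = 0.0752) lost it too. With the animal block in the TG libraries alone it held (1.36, adjusted p = 0.00284).

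Between TG Me-X04- and WT, 0 of the 58 were DE (median log2FC 0.05), beside 0.201% of all genes. Between TG Me-X04+ and WT, 10 were higher and 3 lower (median 0.10), beside 8.25% and 6.02% of all genes. The largest rises were those of Olr1, a receptor for oxidized lipoproteins (2.83, SE 0.73, adjusted p = 0.0139), Nceh1 (2.79, SE 0.30, adjusted p = 9.15e-06) and the sterol carrier Stard4 (2.36, SE 0.62, adjusted p = 0.0149). Olr1 varied widely in TG Me-X04+ (3.69, 1.22, 0.13 and 2.87) and was not DE without its first library (2.26, adjusted p = 0.0580). Stard4 measured 0.32, 1.19, -0.34 and -1.25 there and was not DE without the second (1.96, adjusted p = 0.0641). The 3 that fell were the acyltransferase Soat2 (-2.45, SE 0.73, adjusted p = 0.0302), the droplet protein Cideb (-1.62, SE 0.49, adjusted p = 0.0336) and the sterol carrier Stard5 (-1.01, SE 0.18, adjusted p = 0.000948). Soat2 rested on 1, 1, 22 and 1 reads in TG Me-X04+ and missed the threshold without TG Me-X04+ replicate 1, 2 or 4 or WT replicate 7 (adjusted p between 0.0504 and 0.0865). Cideb did so without WT replicate 2, 4, 5 or 7 or TG Me-X04+ replicate 3 (adjusted p between 0.0559 and 0.121).

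**Figure D5:**
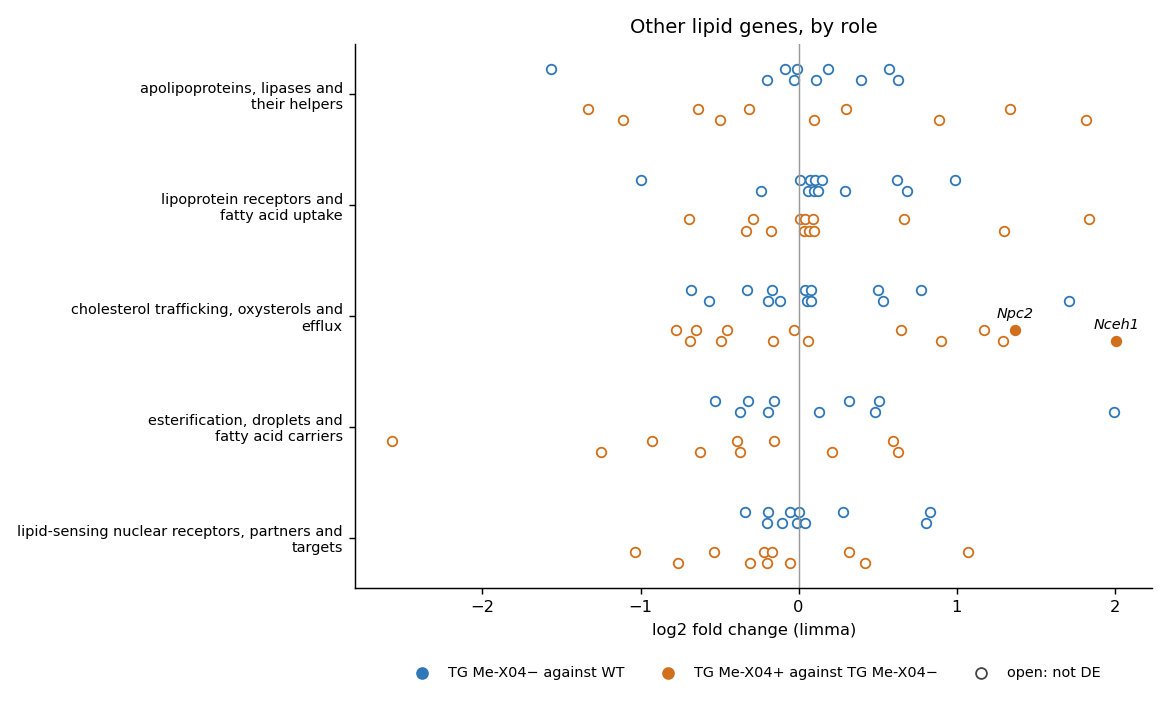
Log2 fold change by limma (horizontal axis) of the 58 other lipid genes in 5 groups by role (vertical axis, with points offset for legibility), for TG Me-X04- against WT and TG Me-X04+ against TG Me-X04-, filled and named where DE. Nceh1 at 2.01 and Npc2 at 1.37 are the filled points, and the others lie on both sides of 0.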

How the data were processed

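RNA-seq of sorted microglia was analysed from 16 libraries. Reads had been trimmed with Trim Galore 0.4.4, aligned to GRCm38 with STAR 2.5.4b and counted on Gencode genes with featureCounts, per the methods and the submitters' processing notes, which also name edgeR 3.24.3. Low genes were removed with filterByExpr and library sizes scaled by TMM. The authors deposited log2 RPKM values, 1 column per library (0 columns were left unused), with a prior of 2 reads at the mean library size. They also deposited gene lengths and columns of their own comparisons (log2 fold changes, mean expression, t, p-values, adjusted p-values and log odds), which were not used. The reads behind the values were recovered (100% whole within 0.01) and served for depths and alternatives.

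Groups were taken from the labels. The tests ran on the log2 values as deposited, in limma 3.58.1 under R 4.3.3 (lmFit and eBayes with trend, 3 groups in 1 fit, two-sided, Benjamini-Hochberg over 17951 genes), in place of the study's quasi-likelihood test, which needs counts. The thresholds follow the study's methods. Groups were said not to overlap when every library of one lay above every library of the other. Named were all 10 members, of the wider list up to 3 rises and 3 falls per comparison, and the 5 genes most like Apoe and Lpl. Of the wider list, 1 gene is not reported here and was left out of its counts. Members and lists were chosen with earlier results of these data known. The number of TG libraries pairs them by the animal label, and the deviations of same-numbered libraries from their group means correlated across genes (r from 0.292 to 0.329). Same-numbered TG libraries are also of the same set, so this r cannot tell a shared animal from a shared set. On simulated data with 200 genes changed by 1.5 between the TG fractions, 88 (44%) passed, each in the simulated direction, as did 2 unchanged genes. At a change of 3, 200 of 200 and 8 unchanged genes passed. With no change simulated, 0 were called. The simulated reads had the same dispersion for every gene and no effect of set or animal, and genes with few reads were not among those changed. These shares therefore need not hold for the libraries studied, or for genes with few reads. Alternatives were another variance model, library weights, 3 scalings, pseudocounts of 1 and 0.1, filters at a mean of 0 and 2, limma voom on recovered reads, no fold threshold, a fit of the compared groups alone, the replicate block, a term for the 2 sets, each library left out and, chosen after seeing the data, each set alone and the block by animal in the TG libraries alone. Coordinates are those of a later Gencode release on GRCm38 than the authors counted on. Python 3.11.15 with matplotlib 3.10.9 served for the figures.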

Additional observations from a re-analysis of the deposited data

Results flagged for a closer look

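Each group of each of the 10 genes was checked for a library far from the rest (30 groups), where chance gives about 1.5, or 1 in 20, and 2 were found. Apoc1 in WT replicate 2 was at 0.71 log2 RPKM (13 reads), with the nearest of the other 6 WT libraries at -1.24. Cd36 in TG Me-X04- replicate 1 was at 0.76 (99 reads), with the nearest of the other 4 at -2.36. Apoc1 in TG Me-X04+ against WT stayed DE without WT replicate 2, and Cd36 passed in no comparison with or without TG Me-X04- replicate 1. What sets these 2 libraries apart for these genes was not tested.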

How the results depend on the processing

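With the replicate block over all 16 libraries, whose numbers pair animals only between the TG groups, 3 of the 10 genes were DE in TG Me-X04+ against TG Me-X04- (Apoe 3.17, Lpl 3.34 and Ch25h 3.18), as were the same 3 with the replicate block by animal in the TG libraries alone, chosen after seeing the data. Of all 17951 genes, 894 were DE in the first of these fits and 1079 in the second. Between TG Me-X04- and WT, where the numbers pair no animals, 1 of the 10 (Apoe) was DE with the block over all libraries, beside 18 of all genes. Ch25h then gave 3.16 (adjusted p = 0.0663). Leaving out each library in turn gave 3 to 6 DE genes for TG Me-X04+ against TG Me-X04- (3 each without TG Me-X04- replicate 3 or 5 or TG Me-X04+ replicate 1), 2 in every fit for TG Me-X04- against WT, 7 in every fit for TG Me-X04+ against WT and 0 for the difference between the steps. For TG Me-X04- against WT, a pseudocount of 1, voom and the filters at a mean of 0 or 2 each gave 1, as did set B alone (Lpl in place of Apoe and Ch25h), and set A alone 0. Over all genes tested, these fits called 13, 25, 19, 16, 19 and 0, in that order. Both filters drop Ch25h by construction. For TG Me-X04+ against WT, both filters gave 4, as they drop Apoc1, Ch25h, Fabp5 and Cd36 by construction, and set A alone gave 3. Over all genes tested, these fits called 2034, 1419 and 1652. Set A alone gave 1 between the TG fractions, with fewer libraries, and set B alone 1 for the difference between the steps (Apoc1). Each of these fits called 85 of all genes. The causes of the other changes were not tested. Scaling by reads outside mitochondrial genes moved the median of all genes between the TG fractions to -0.36 and lost Fabp5 (2.72, adjusted p = 0.0647) and Plin2 (0.75, adjusted p = 0.10). Lpl between the TG fractions was DE in 18 of 18 alternatives and Apoe in 17. In the 3 comparisons 2193 values of single genes were recomputed, for the 10 genes and for other lipid and marker genes named here. Of these values, 99 lost and 51 gained a call, 60 that passed neither way changed sign, and 0 called values reversed. Ordering by the median swapped only Lpl and Plin2, in TG Me-X04-. Among the 10 genes, low reads limit Apoc1, Ch25h, Fabp5 and Cd36.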

Other observations

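Other genes of the wider lipid list differed between TG Me-X04+ and WT and are named here after their values were seen. Srebf2, the master regulator of cholesterol synthesis, was higher by 1.88 (SE 0.46, limma adjusted p = 0.0103) and the lipoprotein receptor Scarb1 by 1.59 (SE 0.35, adjusted p = 0.00466). Pltp, which transfers phospholipid between lipoproteins, was higher by 1.53 (SE 0.40, adjusted p = 0.0140) and the lysosomal acid lipase Lipa by 1.28 (SE 0.30, adjusted p = 0.00641). Pltp missed the threshold without TG Me-X04+ replicate 2 (1.29, adjusted p = 0.0619), and Lipa after quantile normalization (0.75, adjusted p = 0.0549). In TG Me-X04+ against TG Me-X04-, Scarb1 gave 1.30 (adjusted p = 0.0526) and was DE in 10 of 17 alternatives.

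The liver X receptors themselves did not pass in any of the 3 comparisons. Nr1h3 gave -0.76 (SE 0.79, adjusted p = 0.666) and Nr1h2 -1.04 (SE 0.90, adjusted p = 0.595) in TG Me-X04+ against TG Me-X04-, and Srebf1, one of their targets, gave -0.22 (SE 0.50, adjusted p = 0.864). These values moved with single libraries: leaving out each in turn gave -1.38 to -0.09 for Nr1h3, -2.01 to -0.15 for Nr1h2 and -0.50 to 0.16 for Srebf1. In set B alone, TG Me-X04+ against WT passed for Nr1h3 (-2.26, adjusted p = 0.0280) and Srebf1 (0.85, adjusted p = 0.0385). That of Nr1h3 rested on few reads: 0 and 4 in the TG Me-X04+ libraries of set B, against 9 to 27 in its WT libraries.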
